A study of Mus musculus with 18 samples.

Results

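The genes described here are the 3 LUC7-like paralogs of the mouse (Luc7l, Luc7l2 and Luc7l3), the genes of the 3 proteins specific to the U1 small nuclear ribonucleoprotein (Snrnp70, Snrpa and Snrpc) and 3 genes of proteins that work with it (Prpf39, Prpf40b and Tia1). They were taken by gene symbol, and each symbol named a single row among the 55401 gene rows, so 9 of 55401 genes are described. The set was chosen by function and selected on measured values of these same libraries, the RECTAS minus vehicle differences and tissue levels given below. All 9 passed the filter on low values in every comparison.

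The series measured polyadenylated RNA in lung, liver and colon of C57BL/6N mice that received RECTAS, a small molecule described as a rectifier of aberrant splicing. The treated mice were given 100 mg/kg RECTAS by mouth in 0.5% carboxymethyl cellulose (CMC), and the vehicle mice were given 0.5% CMC alone. Doses were 4 h apart and tissue was taken 8 h after the first dose, at 7 weeks of age. The 6 groups were RECTAS lung, vehicle lung, RECTAS liver, vehicle liver, RECTAS colon and vehicle colon, with 3 libraries in each of the 6 groups and 18 libraries in all. No genotype other than the strain is named, and all mice received CMC. The labels do not give the sex of the mice, and leave unsaid whether a mouse gave more than a single tissue and whether each library stands for its own mouse, so that p-values measure the spread between these libraries, which may in part be technical.

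The U1 ribonucleoprotein is the first part of the spliceosome to bind a new transcript: its RNA pairs with the 5′ splice site at the start of an intron. LUC7-like proteins are the mammalian relatives of the yeast U1 protein Luc7; they associate with U1 and influence which 5′ splice sites it uses. Many genes of splicing proteins, these among them, also make transcripts with retained introns or with premature stop codons that are degraded by nonsense-mediated decay. In the annotation used, Luc7l2 had 13 transcript models, of which 4 were protein coding, 3 were marked for nonsense-mediated decay and 3 as retained introns. The values below are sums over all transcripts of a gene, so neither exon use nor the choice between such transcripts was measured.

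In GRCm38 the LUC7-like genes lie on 3 chromosomes, Luc7l at chr17:26252896-26285504 (plus strand), Luc7l2 at chr6:38551334-38609470 (plus strand) and Luc7l3 at chr11:94287890-94321988 (minus strand). The U1 core genes are Snrnp70 at chr7:45376453-45395742 (minus strand), Snrpa at chr7:27187005-27196271 (minus strand) and Snrpc at chr17:27838150-27851968 (plus strand). The other members are Prpf39 at chr12:65036333-65063386 (plus strand), Prpf40b at chr15:99295087-99317018 (plus strand) and Tia1 at chr6:86404219-86433405 (plus strand).

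The 3 LUC7-like genes are close enough in sequence that it matters how well reads can tell them apart. A stretch of 60 coding bases is shown for each, read from the GRCm38 transcripts and aligned without gaps. The stretch lies at chr6:38591342-38591401 on the plus strand for Luc7l2, at chr17:26267269-26267328 on the plus strand for Luc7l and at chr11:94299998-94300057 on the minus strand for Luc7l3. Capitals in the Luc7l2 line mark bases that differ from both other genes, and capitals in the Luc7l and Luc7l3 lines mark bases that differ from Luc7l2.
Luc7l2: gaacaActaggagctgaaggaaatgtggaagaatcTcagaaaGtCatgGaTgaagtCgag
Luc7l: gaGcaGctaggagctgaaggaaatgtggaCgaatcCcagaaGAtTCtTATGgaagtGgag
Luc7l3: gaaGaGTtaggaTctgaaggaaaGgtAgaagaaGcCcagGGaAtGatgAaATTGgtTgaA
In this stretch 35 of 60 bases were the same in all 3 genes. Over the whole coding sequence, Luc7l2 and Luc7l were identical at 69.2% of 1116 aligned bases, Luc7l2 and Luc7l3 at 51.8% and Luc7l and Luc7l3 at 52.2%. No run of 50 bases was shared between any of the 3 main transcripts, so a read of that length has no exact match in more than 1 of them.

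Sequence shared with other genes did occur. Of the 2653 runs of 50 bases in the main Luc7l2 transcript, 26.8% also occurred elsewhere in the annotated transcripts: 381 in the processed pseudogene Gm11889, which was listed at 0 to 0.23 TPM (a level corrected for gene length and set relative to all transcripts of the library), and 330 in Gm26699. Gm26699 is a noncoding gene on the opposite strand that overlaps the start of Luc7l2 (chr6:38551531-38554007) and was not analysed here. The libraries were made with a stranded kit, per the labels' protocols, but whether strand was used in counting is not given in the sources used here, so reads from this antisense gene could have been counted for Luc7l2. The corresponding share was 31.1% for Snrpa, with pseudogenes listed at 0 to 0.13 TPM, with Vmn2r110 (230 runs, at most 0.01 TPM) and with BC024978, an overlapping protein-coding gene on the opposite strand (68 runs, 3.97 to 9.85 TPM). For Snrpc it was 26.7%, with pseudogenes listed at no more than 1.95 TPM. Prpf39 shared 12.5% of its runs with Fkbp3, an overlapping gene on the opposite strand. In liver Fkbp3 was listed at 15.99 to 19.05 TPM in RECTAS mice and 17.4 to 19.7 TPM in vehicle mice. As with Gm26699 and Luc7l2, reads from Fkbp3 could have been counted for Prpf39. Tia1 shared 6.87% with the overlapping gene Gm44790, listed at no more than 0.26 TPM. Luc7l, Luc7l3, Snrnp70 and Prpf40b shared no run of 50 bases with another gene.

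The tissues carried the markers their labels name. Alb was at 57361 to 75688 TPM in liver, Sftpc at 28612 to 35899 TPM in lung and Cdx2 at 169 to 182 TPM in colon. Lung libraries also held hepatocyte transcripts, with Alb between 0.81 and 782 TPM. Genes listed above 0 numbered 24084 to 25227 in lung libraries, 19836 to 20502 in liver libraries and 23308 to 23874 in colon libraries. The 20 highest genes held 29.2% to 33.7% of all TPM in lung, 35.4% to 37.5% in liver and 30.4% to 32.5% in colon. The files give no counts, so sequencing depth is unknown.

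Luc7l2 was the only one of the 9 genes that was lower with RECTAS, without overlap of the groups, in all 3 tissues. It was the most abundant of the LUC7-like genes in every library. In lung, Luc7l2 had 124, 117 and 117 TPM in RECTAS mice, against 164, 183 and 172 TPM in vehicle mice. In liver it had 53.6, 52.9 and 47.4 TPM in RECTAS mice, against 72.4, 95.3 and 91.1 TPM in vehicle mice. In colon it had 66.9, 81.1 and 62.1 TPM in RECTAS mice, against 108, 99.8 and 101 TPM in vehicle mice. Every RECTAS library thus lay under every vehicle library of its tissue. The RECTAS mean was 30.9% lower than the vehicle mean in lung, 40.5% lower in liver and 32.0% lower in colon. Since the genes were chosen with the RECTAS results of these data known, these differences and the p-values beside them are a description and not a test of these genes.

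**Figure D1:**
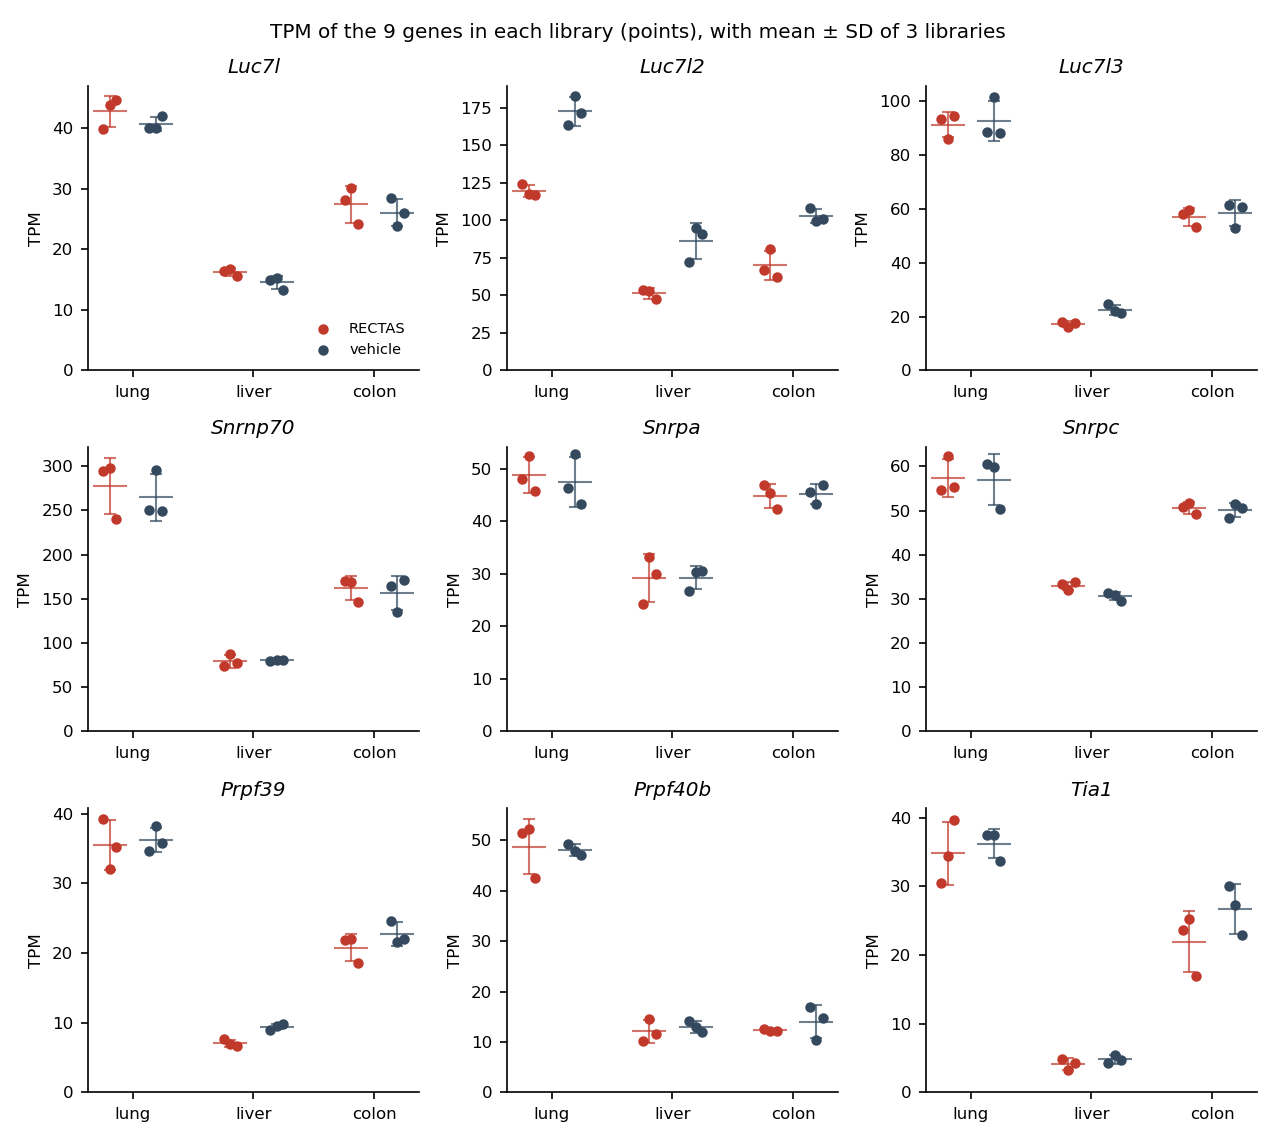
TPM of each of the 9 genes (vertical axes, linear and from 0) in every library, by tissue, with RECTAS libraries in red left of vehicle libraries in dark blue. Points are libraries, and bars give the mean ± SD of 3 libraries. For Luc7l2 the RECTAS points lie below the vehicle points in all 3 tissues, while for the U1 core gene Snrnp70 the groups overlap in each tissue.

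On the log2(TPM + 1) scale, limma gave a RECTAS minus vehicle difference for Luc7l2 of -0.53 in lung (SE 0.06), -0.73 in liver (SE 0.12) and -0.56 in colon (SE 0.11). After Benjamini-Hochberg adjustment over all genes tested, the limma p was 0.145 in lung, 0.15 in liver and 0.9999 in colon. At an adjusted p under 0.05, therefore, 0 of the 9 genes were called in any single tissue. Over all genes that share was 0.00637% in lung (1 of 15699), 0.0167% in liver (2 of 11944) and 0% in colon (0 of 14282). At an unadjusted p under 0.05, 1977 genes passed in lung (12.6%), 1388 in liver (11.6%) and 231 in colon (1.62%), and among the 9 genes there were 1, 3 and 1. In liver, Luc7l2 passed the threshold when all 18 libraries were fitted together (adjusted p = 0.00563) and when replicate 1 of the vehicle liver, its lowest vehicle library, was left out (adjusted p = 0.0408). The adjusted p over all alternatives for Luc7l2 in liver ranged up to 0.492.

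Averaged over the 3 tissues in 1 fit of all 18 libraries, Luc7l2 fell by 0.61 on the log2 scale (SE 0.06), a factor of 0.657 (95% confidence interval of the log2 difference -0.73 to -0.48). The limma adjusted p was 0.000433, and the unadjusted p was the lowest of the 17537 genes tested. Of the 9 genes 1 was thus called, against 0.188% of all genes (33 of 17537, of which 16, or 0.0912%, were lower and 17, or 0.0969%, higher). At an unadjusted p under 0.05 there were 3 of the 9, beside 9.82% of all genes. Luc7l2 was called in each of the 28 alternatives tried, with adjusted p between 4.59e-05 and 0.00218. The average is made of the differences known when the genes were chosen. Its rank, p-values and count of calls are therefore also a description and not a test. Groups that did not overlap and were lower with RECTAS in all 3 tissues occurred in 0.102% of the 10753 genes tested in all 3 tissues (11 genes), and higher in all 3 tissues in 0.205% (22 genes).

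**Figure D2:**
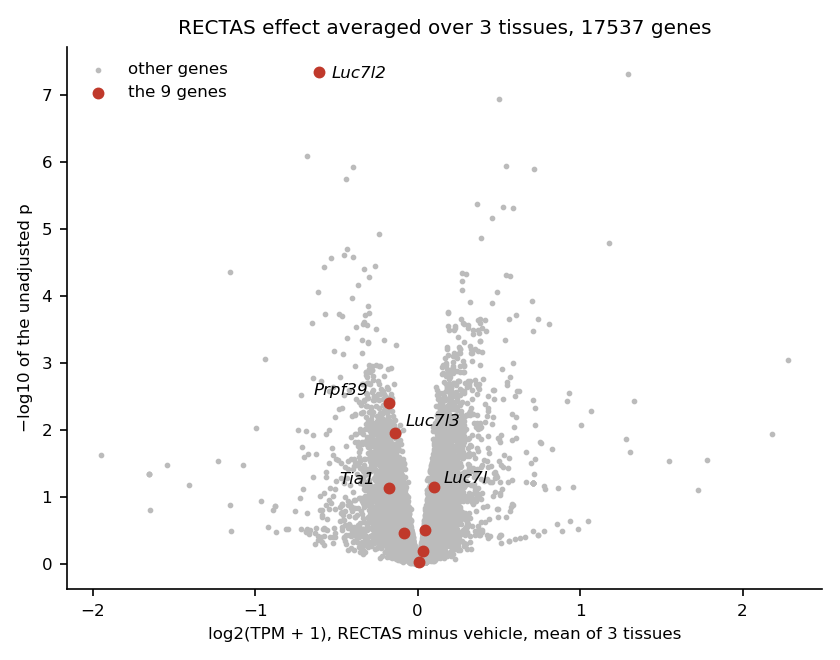
Difference in log2(TPM + 1), RECTAS minus vehicle, averaged over the 3 tissues (horizontal axis) against −log10 of the unadjusted limma p (vertical axis) for 17537 genes. Grey points are all other genes and red points are the 9 genes. Luc7l2 lies at -0.61 and at the top of the plot, and the other 8 genes lie between -0.18 and 0.10.

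The other LUC7-like genes did not move with it in every tissue. Luc7l is the paralog closest to Luc7l2 in coding sequence. Luc7l had 16.4, 16.7 and 15.6 TPM in RECTAS liver, against 14.9, 15.3 and 13.3 TPM in vehicle liver, so every RECTAS library was higher. In lung and colon its groups overlapped, at 39.8 to 44.7 TPM in RECTAS lung against 39.9 to 41.9 TPM in vehicle lung, and at 24.1 to 30.04 TPM in RECTAS colon against 23.9 to 28.4 TPM in vehicle colon. The Luc7l difference was 0.07 in lung, 0.15 in liver and 0.07 in colon, and 0.10 on average (SE 0.05, limma adjusted p = 0.556). Luc7l3, the more distant paralog, had 18.1, 16.1 and 17.6 TPM in RECTAS liver, against 24.7, 21.9 and 21.2 TPM in vehicle liver. There all RECTAS libraries were below all vehicle libraries, a difference of -0.37 (SE 0.09, limma adjusted p = 0.271). In lung, Luc7l3 was at 85.9 to 94.4 TPM in RECTAS mice and 88.2 to 101 TPM in vehicle mice, and in colon at 53.2 to 59.5 TPM and 52.8 to 61.5 TPM. The Luc7l3 groups overlapped in both, with differences of -0.02 and -0.03.

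The makeup of the LUC7-like transcript pool can be read without reference to the rest of the library, since any scaling factor cancels. Luc7l2 made up 47.2% ± 1.32 of the summed TPM of the 3 genes in RECTAS lung and 56.5% ± 0.435 in vehicle lung (SD, n = 3 each). In liver its share was 60.5% ± 1.46 in RECTAS mice and 69.7% ± 4.4 in vehicle mice, and in colon it was 45.3% ± 2.01 and 55.0% ± 1.39 (SD, n = 3 each). In each tissue every RECTAS share was below every vehicle share. The mean shares of Luc7l and Luc7l3 were correspondingly higher with RECTAS. Luc7l was at 16.9% against 13.3% in lung, 19.2% against 11.8% in liver and 17.8% against 13.9% in colon. Luc7l3 was at 36.0% against 30.2% in lung, 20.4% against 18.5% in liver, where its libraries overlapped, and 37.0% against 31.1% in colon. The shares add up to the whole, so a lower Luc7l2 level by itself raises the shares of the others. The ratio of Luc7l2 to Luc7l was 2.81 in RECTAS lung and 4.26 in vehicle lung, 3.16 in RECTAS liver and 5.98 in vehicle liver, and 2.55 in RECTAS colon and 3.97 in vehicle colon. The summed TPM of the 3 LUC7-like genes relative to that of Snrnp70, Snrpa and Snrpc was 0.665 against 0.831 in lung, 0.602 against 0.878 in liver and 0.599 against 0.745 in colon, RECTAS against vehicle.

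**Figure D3:**
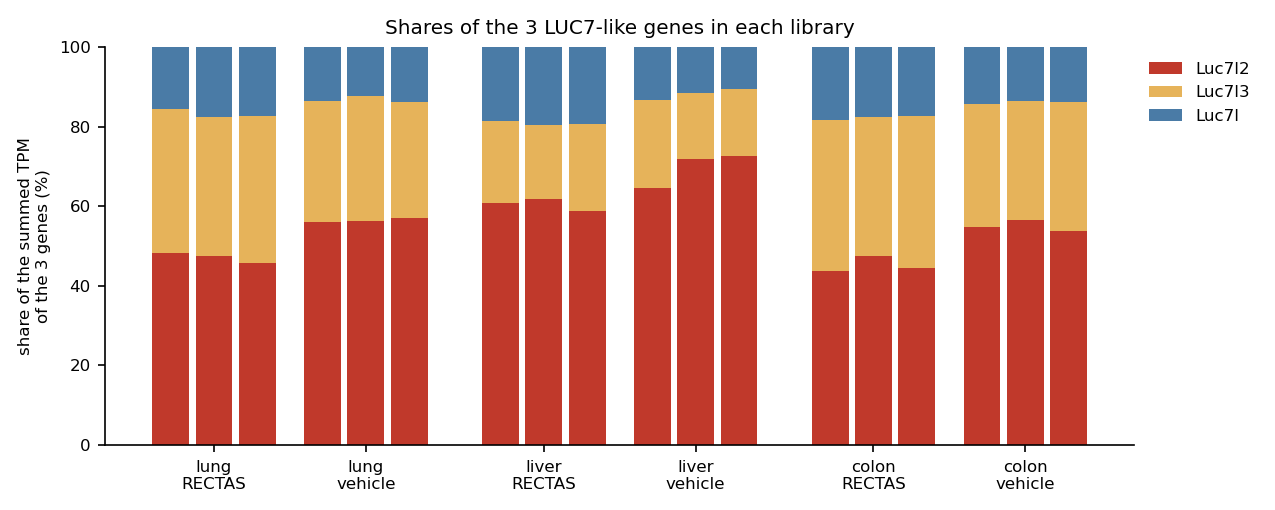
Share of each LUC7-like gene in their summed TPM (vertical axis, percent, from 0 to 100), with 1 stacked bar for each library. RECTAS libraries stand left of vehicle libraries in each tissue. The red Luc7l2 segment averages 47.2% in RECTAS and 56.5% in vehicle lung, 60.5% and 69.7% in liver, and 45.3% and 55.0% in colon.

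The 3 genes of the U1 core showed smaller differences. Snrnp70 encodes the U1-70K protein, which binds U1 RNA and contacts SR proteins. Snrnp70 had 295, 298 and 241 TPM in RECTAS lung against 250.0, 295 and 249 TPM in vehicle lung, and 73.5, 87.7 and 76.9 TPM in RECTAS liver against 79.99, 80.4 and 81.02 TPM in vehicle liver. In colon it had 171, 169 and 146 TPM in RECTAS mice and 164, 135 and 171 TPM in vehicle mice. The Snrnp70 groups overlapped in all 3 tissues, and the averaged difference was 0.03 (95% confidence interval -0.10 to 0.16). Snrpa encodes U1-A, which binds another loop of U1 RNA, and Snrpc encodes U1-C, which steadies the pairing of U1 with the splice site. Their averaged differences were 0.01 (interval -0.12 to 0.13) and 0.04 (interval -0.05 to 0.13). Snrpc had 33.3, 31.96 and 33.7 TPM in RECTAS liver and 31.4, 30.8 and 29.6 TPM in vehicle liver, so that its groups did not overlap there, at a difference of 0.11 (limma adjusted p = 0.591). Within this trio the share of Snrnp70 was 72.2% with RECTAS and 71.7% with vehicle in lung, 56.0% and 57.3% in liver, and 62.9% and 62.1% in colon. The ranges of the libraries overlapped in each tissue.

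Among the associated proteins, Prpf39 differed most, in liver. Prpf39 is the mammalian counterpart of a yeast U1 protein. It had 7.63, 6.93 and 6.66 TPM in RECTAS liver, against 9.0, 9.50 and 9.80 TPM in vehicle liver, and the groups did not overlap. The difference was -0.37 (SE 0.09, limma adjusted p = 0.261), with values between -0.42 and -0.26 in the 16 alternatives. In lung it was at 32.1 to 39.2 TPM in RECTAS mice and 34.7 to 38.2 TPM in vehicle mice, and in colon at 18.5 to 22.02 TPM and 21.5 to 24.7 TPM, with overlap in both. Prpf40b, related to the yeast protein Prp40 that links U1 to the branch site complex, overlapped in every tissue, with differences of 0.01 in lung, -0.11 in liver and -0.15 in colon. Tia1 encodes a protein that binds uridine-rich sequence next to weak 5′ splice sites and recruits U1 through U1-C, as described in human cells. Tia1 had 23.7, 25.2 and 16.9 TPM in RECTAS colon and 30.1, 27.3 and 22.9 TPM in vehicle colon, a difference of -0.28 whose 95% confidence interval ran from -0.69 to 0.12. Its groups overlapped in all 3 tissues.

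Counted over the 9 genes in liver, 3 were lower without overlap (Luc7l2, Luc7l3 and Prpf39) and 2 higher without overlap (Luc7l and Snrpc). Over all genes tested in liver these shares were 13% and 5.75%. In lung and in colon Luc7l2 alone lay apart. There 3.18% and 2.01% of all genes were lower without overlap, and 16.1% and 3.43% higher. The median difference of the 9 genes was 0.01 in lung, -0.11 in liver and -0.03 in colon, beside 0.06, -0.04 and 0.02 for all genes tested.

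**Figure D4:**
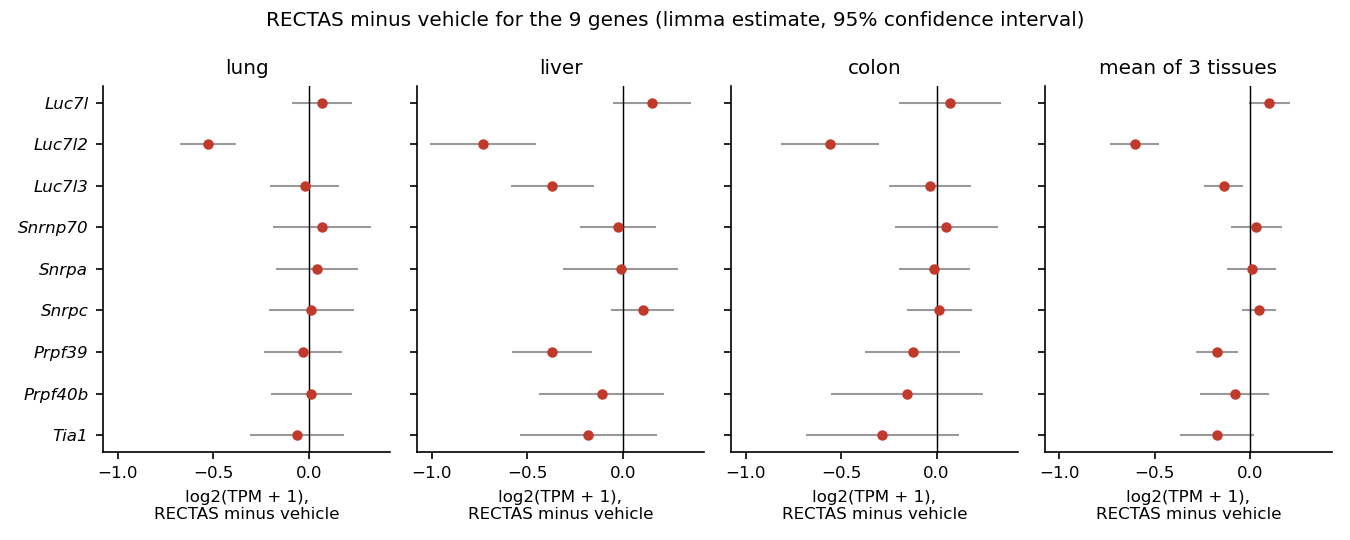
RECTAS minus vehicle difference in log2(TPM + 1) (horizontal axes) for the 9 genes in lung, liver and colon and averaged over the 3 tissues. Points are limma estimates and bars are 95% confidence intervals. Luc7l2 is at -0.53, -0.73, -0.56 and -0.61 in the 4 panels, and Luc7l3 and Prpf39 are both at -0.37 in liver.

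Whether the RECTAS difference itself differed between tissues was tested by interaction contrasts in the fit of all 18 libraries. None of the 9 genes passed: 0 of 9 were called for lung against liver, for liver against colon and for lung against colon, beside 0.0228%, 0.0285% and 0.0114% of all genes. At an unadjusted p under 0.05 there were 2, 1 and 0 of the 9, beside 8.98%, 5.37% and 3.22% of all genes. For Luc7l2 the difference in lung minus that in liver was 0.20 (95% confidence interval -0.11 to 0.52), and liver minus colon was -0.17 (interval -0.49 to 0.14). For Luc7l3, lung minus liver was 0.35 (interval 0.09 to 0.60, limma adjusted p = 0.384) and liver minus colon was -0.33 (interval -0.59 to -0.08, limma adjusted p = 0.748). Prpf39 had 0.34 for lung minus liver (interval 0.07 to 0.61, limma adjusted p = 0.421). The lower liver values of Luc7l3 and Prpf39 were therefore not shown to be particular to liver.

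Markers of other cells were set beside these results, since in bulk tissue fewer cells of a type and less RNA per cell cannot be told apart. In lung, 7 of 7 hepatocyte markers had lower values with RECTAS, with a median difference of -1.77 and none called. Their summed TPM was 5.67 to 528 in RECTAS lung and 20.3 to 1306 in vehicle lung, so the groups overlapped. Without the library of each lung group that was highest in Alb, a choice made after seeing the data, the Luc7l2 difference in lung was -0.52 (limma adjusted p = 0.148). Summed TPM of the 6 lung epithelial markers did not overlap in lung, at 159973 to 165658 with RECTAS and 169876 to 189028 with vehicle. Most of this sum was Scgb1a1, at 114921 to 149107 TPM in lung libraries. On the log2 scale 5 of the 6 had higher values with RECTAS. With TPM rescaled after removal of mitochondrial genes and the 20 highest genes, Luc7l2 stood at -0.59 in lung, -0.72 in liver and -0.59 in colon. Dividing-cell markers had lower log2 values in 5 of 5 cases in RECTAS colon, with summed TPM of 95.5 to 177 in RECTAS and 131 to 139 in vehicle colon. Smooth muscle markers were lower in 5 of 5 cases there (median -0.02), at 1280.4 to 2430.0 TPM in RECTAS and 1419 to 4154 TPM in vehicle colon. In lung, smooth muscle markers had higher values in 5 of 5 cases (median 0.25) and erythroid markers lower values in 3 of 3 (median -0.21), and in liver the 3 measured dividing-cell markers of 5 had higher values (median 0.20). The summed TPM of each of these 3 lists overlapped between RECTAS and vehicle. Leukocyte markers summed to 138 to 164 TPM in RECTAS and 129 to 161 TPM in vehicle lung, 19.1 to 33.8 and 21.4 to 30.5 TPM in liver, and 7.77 to 21.1 and 7.31 to 10.3 TPM in colon. None of these markers was called in any tissue, and the part of these cells in the Luc7l2 results was not tested.

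Across tissues, all 9 genes had their highest mean TPM in lung. Tissue levels were among the values known when the genes were chosen. The tissue differences, counts and p-values below are therefore a description and not a test of these genes. Because the comparison of tissues depends on how libraries are scaled, the median of all genes is given first. In vehicle mice, the median difference over all 16715 genes tested was 1.10 for lung minus liver, -0.68 for liver minus colon and 0.35 for lung minus colon. In RECTAS mice (16707 genes) it was 1.19, -0.72 and 0.38. Scaling by median ratios brought all 6 medians to within 0.05 of 0. A gene at the same TPM-scale difference as this median therefore did not stand apart from genes in general.

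On the TPM scale in vehicle mice, 9 of 9 genes were called higher in lung than in liver, beside 88% of all genes called, 74.5% higher and 13.5% lower. With median ratios the split of the 9 genes was 5 higher and 3 lower, and that of all genes 39.8% and 36.9%. For liver minus colon, 8 of 9 were called lower, beside 79.9% of all genes called, 63.8% lower and 16.1% higher, and with median ratios 3 were lower and 4 higher (37% and 36.7% of all genes). For lung minus colon, 7 of 9 were called higher, beside 75.7% of all genes called, 51% higher and 24.7% lower, and with median ratios 6 were higher and 1 lower (35.5% and 36.9%). In RECTAS mice the TPM-scale counts were 9 higher, 8 lower and 8 higher. Of all genes, 88.7% were called for lung minus liver (75.6% higher, 13.1% lower), 80.8% for liver minus colon (15.5% higher, 65.3% lower) and 76.1% for lung minus colon (52.3% higher, 23.8% lower). With median ratios the 9 genes split there into 5 higher and 3 lower, 5 and 3, and 5 and 2. All-gene shares with median ratios are not given for RECTAS mice, so these splits are not set against genes in general. The 9 genes had a median difference of 1.70 for lung minus liver in vehicle mice, -0.80 for liver minus colon and 0.65 for lung minus colon.

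The direction held under all scalings tried for Luc7l3, Prpf39 and Tia1 in each of the 3 tissue comparisons. Tia1 spread most: in vehicle mice it had 36.2 ± 2.13 TPM in lung, 4.80 ± 0.604 TPM in liver and 26.7 ± 3.64 TPM in colon (SD, n = 3 each). It was 2.68 higher in lung than in liver (SE 0.12, limma adjusted p = 3.53e-08), which is 1.58 above the median of all genes. Liver minus colon was -2.25 (SE 0.12, limma adjusted p = 1.43e-07). Lung minus colon was 0.43 (limma adjusted p = 0.00865), a call that was lost with quantile normalisation (0.23, adjusted p = 0.0803) and with median ratios (0.03, adjusted p = 0.833). Luc7l3 had 92.6 ± 7.52 TPM in vehicle lung, 22.6 ± 1.85 TPM in vehicle liver and 58.3 ± 4.77 TPM in vehicle colon (SD, n = 3 each), and Prpf39 had 36.2 ± 1.77, 9.43 ± 0.404 and 22.7 ± 1.67 TPM (SD, n = 3 each). Lung minus liver was 1.99 for Luc7l3 (limma adjusted p = 5.12e-08) and 1.84 for Prpf39 (limma adjusted p = 3.38e-08), which is 0.89 and 0.73 above the median of all genes.

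Prpf40b had another order of tissues. It had 48.1 ± 1.14 TPM in vehicle lung, 13.0 ± 1.16 TPM in vehicle liver and 14.1 ± 3.28 TPM in vehicle colon (SD, n = 3 each), so lung stood apart and the other tissues overlapped. Lung minus liver was 1.81 (limma adjusted p = 2.26e-06) and lung minus colon was 1.73 (limma adjusted p = 5.31e-06), and both stayed above 0 under every scaling. Liver minus colon was -0.08 on the TPM scale (limma adjusted p = 0.646), but 0.82 with median ratios and 0.67 with quantile normalisation, so no order of liver and colon was set.

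For Luc7l2 the direction of 2 of the 3 tissue differences depended on the scaling. In vehicle mice Luc7l2 had 173 ± 9.63 TPM in lung, 86.3 ± 12.2 TPM in liver and 103 ± 4.65 TPM in colon (SD, n = 3 each). Lung minus liver was 1.0 (SE 0.10, limma adjusted p = 1.02e-05), 0.10 below the median of all genes, and it turned to -0.36 with median ratios. Liver minus colon was -0.26 (limma adjusted p = 0.0406) and turned to 0.69 with median ratios and 0.11 with quantile normalisation. That call was also lost when 1 library was left out, among others replicate 1 of the vehicle liver (-0.14, limma adjusted p = 0.0936). Lung minus colon was 0.74 (limma adjusted p = 0.000138) and stayed above 0 under every scaling. Luc7l had 40.6 ± 1.12 TPM in vehicle lung, 14.5 ± 1.09 TPM in vehicle liver and 26.04 ± 2.27 TPM in vehicle colon (SD, n = 3 each). The Luc7l lung minus liver difference was 1.43 on the TPM scale and 0.11 with median ratios, where it was no longer called (limma adjusted p = 0.282), and in RECTAS mice it turned to -0.10. Its liver minus colon difference was -0.80 and turned to 0.11 with median ratios.

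Free of scaling, the share of Luc7l2 among the LUC7-like genes was higher in liver than in the other tissues, in vehicle mice at 56.5% in lung, 69.7% in liver and 55.0% in colon. The difference was -13.2 percentage points for lung minus liver and 14.7 for liver minus colon in vehicle mice, and -13.3 and 15.2 in RECTAS mice. In each of these comparisons no library of liver overlapped the other tissue, and the exact two-sided permutation p was 0.10, the smallest that 3 libraries against 3 can give (0.15 after adjustment over the 6 comparisons). Lung minus colon was 1.45 percentage points in vehicle mice (exact permutation p = 0.30). Luc7l3 made up 30.2% of the pool in vehicle lung, 18.5% in vehicle liver and 31.1% in vehicle colon.

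The U1 core genes also differed from each other. Snrnp70 had 265 ± 26.5 TPM in vehicle lung, 80.5 ± 0.515 TPM in vehicle liver and 157 ± 19.3 TPM in vehicle colon (SD, n = 3 each), and lung minus liver was 1.70 (limma adjusted p = 2.29e-07), above 0 under every scaling. Its liver minus colon difference was -0.95 on the TPM scale and 0.00 with median ratios. Snrpa had 47.5 ± 4.79, 29.3 ± 2.17 and 45.2 ± 1.83 TPM in vehicle lung, liver and colon, and Snrpc had 57.0 ± 5.72, 30.6 ± 0.903 and 50.1 ± 1.65 TPM (SD, n = 3 each). On the TPM scale in vehicle mice, lung and colon were not told apart for Snrpa (0.07, 95% confidence interval -0.14 to 0.27) or for Snrpc (0.18, interval -0.01 to 0.37). With median ratios Snrpa was called lower in lung (-0.34, limma adjusted p = 0.00358) and Snrpc stood at -0.23 (limma adjusted p = 0.0586), while rescaling called Snrpc higher (0.22, limma adjusted p = 0.0353), as did the TPM scale in RECTAS mice (0.18, limma adjusted p = 0.0422). Lung minus liver was 0.68 for Snrpa and 0.87 for Snrpc on the TPM scale, 0.42 and 0.23 below the median of all genes, and it turned to -0.66 and -0.47 with median ratios. The share of Snrnp70 in the summed TPM of the U1 trio, which no scaling touches, was 71.7% ± 1.43 in vehicle lung, 57.3% ± 0.542 in vehicle liver and 62.1% ± 2.84 in vehicle colon (SD, n = 3 each).

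**Figure D5:**
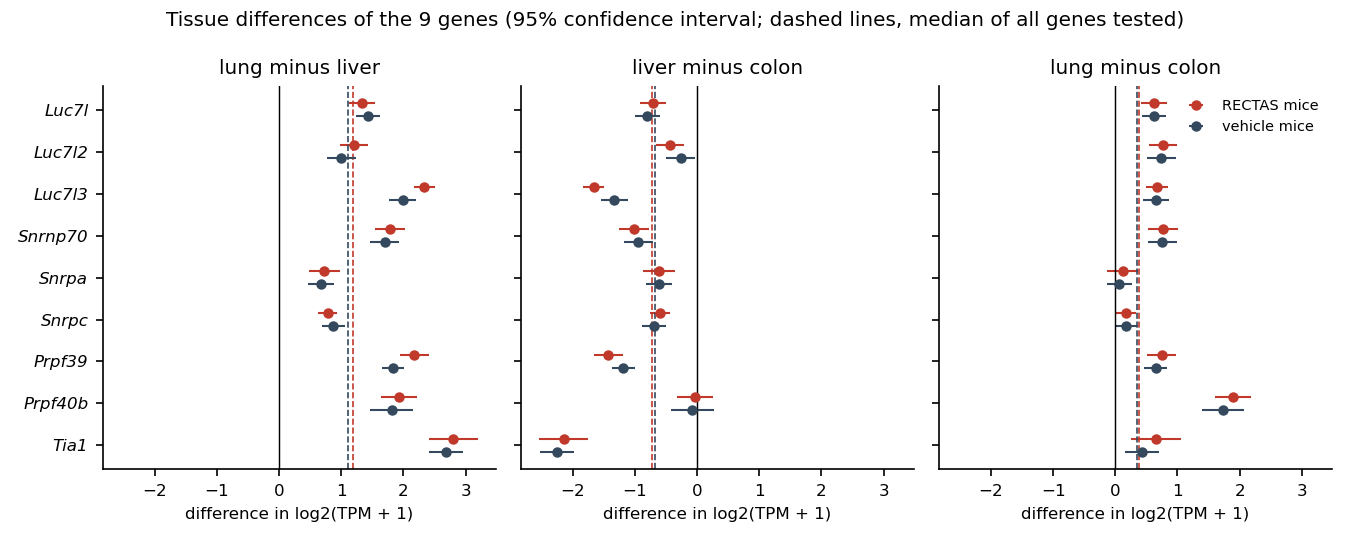
Tissue differences in log2(TPM + 1) (horizontal axes) for the 9 genes in RECTAS mice (red) and vehicle mice (dark blue), with 95% confidence intervals. Dashed lines give the median of all genes tested, at 1.10, -0.68 and 0.35 in vehicle mice. Tia1, Luc7l3, Prpf39 and Snrnp70 lie to the right of the lung minus liver median and to the left of the liver minus colon median. So does Luc7l in vehicle mice. With median-ratio scaling the direction turns for Luc7l2, Snrpa and Snrpc in lung minus liver (Luc7l too in RECTAS mice). It turns for those 3, Luc7l, Snrnp70 (vehicle mice) and Prpf40b in liver minus colon, and for Snrpa and Snrpc in lung minus colon.

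A further 3 lists of related genes were read beside the 9. They were the 8 genes of the Sm ring shared by the spliceosomal ribonucleoproteins, 8 genes of further proteins that act at the 5′ splice site, and 8 genes of the U11 and U12 particle that recognises minor introns. All 24 were measured, and 0 were called for RECTAS against vehicle in lung, liver or colon, or averaged. The Sm ring had 5 of 8 genes higher in lung, 4 in liver and 4 in colon on the TPM scale, but in lung only 2 of 8 under each of the other 3 scalings. Its members with the smallest p were Snrpg in liver, with 25.5 ± 1.63 TPM in RECTAS and 22.5 ± 2.95 TPM in vehicle mice (SD, n = 3 each), and Snrpn in lung, with 11.4 ± 1.38 and 10.2 ± 0.182 TPM (SD, n = 3 each). Both groups of libraries overlapped, at differences of 0.18 and 0.15.

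Of the further proteins at the splice site, 3 of 8 had lower values in lung, 7 in liver and 6 in colon on the TPM scale, and under each of the other 3 scalings 5 of 8 were lower in lung, 7 in liver and 7 in colon. Rbm25, which promotes use of particular 5′ splice sites through U1, had 72.7 ± 4.27 TPM in RECTAS lung and 91.04 ± 7.55 TPM in vehicle lung (SD, n = 3 each). The Rbm25 difference was -0.32 in lung (SE 0.08, limma adjusted p = 0.272) and -0.27 averaged over tissues (limma adjusted p = 0.203). Rbm25 was lower in every RECTAS lung library than in every vehicle lung library, without passing the threshold. The same held in liver, at 20.8 to 23.95 TPM in RECTAS mice and 24.02 to 31.5 TPM in vehicle mice, while the colon groups overlapped. Of all genes tested, 3.18% in lung and 13% in liver were lower without overlap.

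In the minor spliceosome list, 6 of 8 genes had higher values in lung, 1 in liver and 6 in colon on the TPM scale. Under each of the other 3 scalings 3 of 8 were higher in lung, and in colon 4 were higher with quantile normalisation, 6 with median ratios and 3 after rescaling. Rnpc3, a protein that binds U12 RNA, had 22.6 ± 1.40 TPM in RECTAS lung and 18.3 ± 1.75 TPM in vehicle lung (SD, n = 3 each), a difference of 0.29 (limma adjusted p = 0.312). Snrnp35, which stands in U11 where U1-70K stands in U1, had 7.95 ± 0.460 TPM in RECTAS lung and 6.23 ± 0.771 TPM in vehicle lung (SD, n = 3 each), a difference of 0.31 (limma adjusted p = 0.325). The lung libraries of both genes did not overlap, as was so, higher with RECTAS, for 16.1% of all genes tested in lung.

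Tissues were also compared for these lists, in vehicle mice on the TPM scale. For lung minus liver, 8 of 8 Sm genes, 8 of 8 further proteins and 7 of 8 minor spliceosome genes were called higher. Of all genes, 74.5% were called higher and 13.5% lower. The list medians were 1.20, 1.32 and 1.25 beside 1.10 for all genes. With median ratios the splits were 3 higher and 3 lower, 4 and 4, and 3 and 2. The highest and lowest were Snrpb (1.85) and Snrpd3 (0.35), Ddx5 (2.0) and Taf15 (0.55), and Zmat5 (2.24) and Snrnp35 (0.17). For liver minus colon 8, 8 and 7 were called lower, beside 63.8% of all genes lower and 16.1% higher. The list medians were -1.21, -0.87 and -1.02 beside -0.68. With median ratios the splits were 1 higher and 4 lower, 3 and 1, and 3 and 3. The extremes there were Snrpd3 (-0.34) and Snrpn (-1.71), Tial1 (-0.39) and Ddx5 (-1.27), and Rnpc3 (-0.25) and Snrnp25 (-2.03). For lung minus colon 2, 6 and 4 were called higher and 1, 0 and 1 lower. Of all genes, 51% were called higher and 24.7% lower. The list medians were 0.02, 0.66 and 0.32 beside 0.35 for all genes. With median ratios the splits were 1 higher and 5 lower, 4 and 2, and 2 and 2. The extremes were Snrpb (0.98) and Snrpn (-0.97), Ewsr1 (0.78) and Taf15 (-0.07), and Rnpc3 (0.86) and Snrnp25 (-0.66). The median-ratio splits of these lists are to be read beside the all-gene shares given above for the same tissue pairs in vehicle mice.

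The genes whose log2(TPM + 1) followed each LUC7-like gene most closely over the 18 libraries were ranked among 11383 genes averaging 5 TPM or more. These correlations are descriptions: the libraries share 3 tissues and 2 treatments, so that tissue alone can set them. For Luc7l2 the closest were Alkbh3 (Pearson r = 0.966), Pcgf1, Tmem250-ps, Tatdn3 and Myg1. For Luc7l they were Nck1 (r = 0.993), Ice1, Map1lc3a, Pkia and 2900097C17Rik, and for Luc7l3 they were Srsf11 (r = 0.995), Srsf1, Lamtor5, Gnpda2 and Rbm6. With the mean of each tissue subtracted, which leaves the treatment and the spread between libraries, those closest to Luc7l2 were Mtcp1 (r = 0.906), Alkbh3 (r = 0.895), Slc25a40, Zup1 and Sdr42e1. Alkbh3, an enzyme that removes alkyl groups from nucleic acids, had 30.2 ± 3.09 TPM in RECTAS and 38.02 ± 2.87 TPM in vehicle lung, 15.1 ± 1.40 and 22.7 ± 0.379 TPM in liver, and 20.04 ± 1.06 and 24.98 ± 1.81 TPM in colon (SD, n = 3 each). Like Luc7l2 it was lower in every RECTAS library of each tissue. In the same reading Luc7l was closest to Snhg5 (r = 0.795), Fbln5, Get1, Orc2 and Gm44313, and Luc7l3 to Magix (r = 0.904), Akap7, Eif4a2, 1810059H22Rik and Mplkip. Among the 9 genes themselves, the tissue-centred r was 0.81 between Luc7l3 and Prpf39, 0.78 between Luc7l2 and Prpf39, 0.58 between Luc7l2 and Luc7l3 and -0.39 between Luc7l2 and Luc7l.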

How the data were processed

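RNA from lung, liver and colon was extracted with TRIzol and made into stranded polyA libraries, per the labels' protocols. The authors deposited 1 table of TPM values per library for 55401 genes, and no counts were used here. The submitters' processing notes name HISAT2 2.2.0, RSEM 1.3.0 and GRCm38, without roles; how strand was treated and which annotation was used is not given in the sources used here. The deposited TPM were transformed to log2(TPM + 1), and genes at 1 TPM or more in at least 3 libraries of a fit were tested with limma 3.58.1 in R 4.3.3 (two-sided moderated statistics whose prior variance follows the mean level, Benjamini-Hochberg over all genes tested, threshold 0.05). This test was run on simulated data beforehand. The 13 comparisons were RECTAS minus vehicle in each tissue (6 libraries each) and averaged over the 3 tissues (18), 3 tissue pairs in vehicle and in RECTAS mice (9 libraries each), and the RECTAS effect between tissues (18). A log2(TPM + 1) difference understates the change of low genes. No value was imputed, and no library was left out of a main result.

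The members, lists and tests were chosen with earlier results of these data known. All 9 genes are named. Of the 3 related lists, the members with the smallest p for RECTAS in a tissue and the extremes between tissues are named, and for likeness the 5 highest Pearson correlations. A list gene that the rule names is not reported here. Transcript models, positions and sequences came from GENCODE M21 (GRCm38), which matched all 9 genes by ID. Alternatives were other pseudocounts (0.1 and 5), no filter or 5 TPM, quantile and median-ratio scaling, rescaling, a block on replicate number, robust variance, leaving out each library and 1 fit of all 18 libraries. Random blocks on treatment and number across tissues, and leaving out the lung libraries highest in Alb, were added after seeing the data.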

Additional observations from a re-analysis of the deposited data

How the results depend on the processing

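The number of the 9 genes called stayed within 1.5 times its value in 277 of 281 combinations of comparison and alternative. The exceptions were Luc7l2 in liver, which made 1 of 9 instead of 0 in the fit of all 18 libraries (range without 1 library 0 to 1, with 1 called without vehicle liver replicate 1), and liver minus colon, where quantile normalisation called 5 genes in vehicle mice and 5 in RECTAS mice, against 8 and 8. Of those 5, Luc7l3, Snrnp70, Prpf39 and Tia1 were among the 8, and Prpf40b was called higher. Over all alternatives, all-gene calls for liver minus colon ranged from 10698 to 15681 in vehicle mice, against 13353 in the main fit. In RECTAS mice they ranged from 10894 to 15681, against 13496. The all-gene share under quantile normalisation is not given, so the 5 are not set against genes in general. With Luc7l2 leading, the averaged effect kept its single call in all 28 alternatives. All-gene calls ranged from 0 to 2 in colon, 0 to 33 in lung, 0 to 94 in liver and 14 to 56 for the average; the 33 in lung and 94 in liver came from the fit of all 18 libraries, against 1 and 2. For the RECTAS effect between tissues they ranged from 0 to 32, 0 to 13 and 0 to 26, against 4, 5 and 2. Directions of called differences turned in tissue comparisons with median ratios: lung minus liver to -0.36 for Luc7l2, -0.66 for Snrpa and -0.47 for Snrpc in vehicle mice, and to -0.10 for Luc7l, -0.28 for Luc7l2, -0.73 for Snrpa and -0.69 for Snrpc in RECTAS mice; liver minus colon to 0.11 for Luc7l, 0.69 for Luc7l2, 0.0044 for Snrnp70, 0.32 for Snrpa and 0.24 for Snrpc in vehicle mice, and to 0.26 for Luc7l, 0.57 for Luc7l2, 0.38 for Snrpa and 0.40 for Snrpc in RECTAS mice; and lung minus colon to -0.29 for Snrpc in RECTAS mice. With quantile normalisation they turned to -0.075 for Snrpa (lung minus liver) and 0.11 for Luc7l2 and 0.020 for Snrpa (liver minus colon) in vehicle mice, and in RECTAS mice to -0.14 for Snrpa and -0.032 for Snrpc (lung minus liver) and 0.086 for Luc7l, 0.11 for Luc7l2, 0.059 for Snrpa and 0.053 for Snrpc (liver minus colon). Of differences not called on the TPM scale, liver minus colon of Prpf40b turned to 0.82 and 0.92 in vehicle and RECTAS mice with median ratios and to 0.67 and 0.78 with quantile normalisation; lung minus colon of Snrpa turned to -0.34 and -0.35 and to -0.055 and -0.082, and that of Snrpc in vehicle mice to -0.23 with median ratios. Rescaling turned liver minus colon of Prpf40b to 0.11 in RECTAS mice. RECTAS minus vehicle differences turned under some scalings for Luc7l, Snrnp70, Snrpa, Snrpc and Prpf40b in lung. They also turned for Snrnp70 and Snrpa in liver and on average, and for Snrpc in colon. Luc7l2 kept its direction in each tissue. Several differences in the RECTAS effect between tissues turned too, among them lung minus liver of Luc7l2, from 0.20 to -0.12 with quantile normalisation. By their construction, median ratios and quantile normalisation set the typical gene equal between tissues. Same-numbered RECTAS and vehicle libraries did not deviate together throughout (r of 0.57, -0.05 and 0.45 in lung, 0.02, -0.04 and -0.06 in liver, 0.42, -0.33 and 0.06 in colon), so numbers were not taken to pair them. With a replicate block the members called were 0, 0 and 0 in lung, liver and colon, 1 on average, 9, 7 and 7 between tissues in vehicle mice, 9, 8 and 7 in RECTAS mice, and 0 for each effect between tissues, and all genes called for liver went to 0. For the other comparisons the all-gene share with this block is not given, so these counts are not set against genes in general. Leaving out a library in a fit of 1 tissue leaves 2 in an arm. The spread of that arm is then taken to be like that of the other arm. Tia1 in liver has no value under the 5 TPM filter. TPM keep no depth, so no counting error could be given.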
